A study of Mus musculus with 131 samples.

Results

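The genes studied here were the 9 mouse genes that write, keep, read or remove methyl groups on cytosine: Tet1, Tet2, Tet3, Dnmt1, Dnmt3a, Dnmt3b, Uhrf1, Tdg and Mbd4. They were taken by name from the 24397 genes of the expression table, and the methylation tiles and peaks lying inside them were taken by position. All 9 were found, and 6 of them reached a mean of 1 FPKM (fragments mapped to a gene, scaled to its transcript length and to the library's mapped fragments) in at least 1 group and were tested. Tet1, Tdg and Mbd4 did not and are described by their values.

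Methylation of cytosine at CG sites is set by DNMT3A and DNMT3B, the de novo methyltransferases, and is copied onto the new strand after replication by DNMT1, which UHRF1 brings to hemimethylated DNA. The TET enzymes oxidize 5-methylcytosine to 5-hydroxymethylcytosine (5hmC) and further, and the glycosylases TDG and MBD4 can then start base excision repair. In liver these enzymes act in hepatocytes that divide quickly before weaning and rarely in the adult.

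The study removed Tet2 and Tet3 from hepatocytes of C57Bl mice that carried floxed alleles of both genes (double knockout, DKO). Cre came from an adeno-associated virus (AAV8) under the Tbg promoter, which is active in hepatocytes, so other liver cells kept both genes. Injection was at 1 day or at 3 weeks of age, controls were WT mice that received the same virus, and hepatocytes were collected at 15 weeks. RNA came from 3 DKO and 3 control libraries for injection at 1 day, 2 DKO and 3 controls for injection at 3 weeks, and uninjected WT hepatocytes of 1 week (1 library), 3 weeks (3) and 15 weeks (3). Whole-genome bisulfite sequencing (WGBS) covered 3 single libraries, from newborn WT (labelled 1 week), from WT at 15 weeks (adult) and from DKO at 15 weeks after injection at 1 day, and reduced representation bisulfite sequencing (RRBS) gave 18 libraries. Of these, 10 came from the injected groups (2 DKO and 3 controls at each time), 2 from WT hepatocytes of 3 weeks, 2 from hepatocytes labelled in vitro and 1 week, 2 from hepatocytes lacking the insulin receptor, 1 from fat of 25 weeks and 1 from neutrophils of 36 weeks. The paper describes the cells labelled in vitro as taken from newborn mice and kept in culture for several weeks. ATAC-Seq and HNF6 ChIP-Seq of liver had 2 WT and 2 DKO libraries each, with no age or injection time in their labels. H3K27ac and H3K4me1 ChIP-Seq of hepatocytes had 1 WT and 1 DKO library each, of 15 weeks, the DKO after injection at 1 day. The 5hmC was mapped in 1 WT library of 20 days. The labels do not say which samples came from separate animals, so p-values measure the spread between libraries.

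Some features of the libraries touch the results. The summed level of 10 hepatocyte markers lay between 13610 and 20610 FPKM in every library, although Alb was listed at 0 throughout. The 1 week library stood apart with 1228 FPKM summed over 9 red cell precursor genes, against 11.34 to 80.26 elsewhere, with 51.09 FPKM over 11 blood cell genes, against 0.9633 to 9.111, and with 120.8 FPKM over 5 bile duct genes, against 5.236 to 21.21. Most of the blood cell sum came from S100a9 (24.91) and S100a8 (17.81), and most of the bile duct sum from Spp1 (113.6). The blood cell gene Ptprc, at 0.0732 FPKM, lay within the 0 to 0.130 FPKM of the other libraries. In every 15 week WT library 4 of 5 blood cell and 3 of 3 bile duct genes tested were at least 1 log2 unit lower than at 1 week. The 3 week WT libraries had 48.0 to 77.1 FPKM of Xist and at most 0.00764 FPKM of Ddx3y, whereas the 15 week WT libraries had at most 0.0272 and at least 11.0 FPKM, so age and sex cannot be told apart between these ages. One control injected at 3 weeks (replicate 2) also expressed Xist, at 88.1 FPKM.

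The deleted genes were examined first. Gene-level FPKM counts reads over all exons and does not resolve the floxed ones, so the WGBS tiles (200 bp) were used to look for the deletion. A tile without a value is only one under the coverage minimum, so it does not by itself show deleted DNA. Over the genome 0.225% of 8067987 tiles with both WT values had none in the DKO library. In Tet2 this held for 16 of 279 tiles, all in a stretch of 5000 bp that holds exons 8, 9 and 10 of the 11 exons of transcript Tet2-202 (mm9, chr3:133132001-133137000), where 4 of 20 tiles kept a DKO value. In Tet3 it held for 10 of 356 tiles, all in a stretch of 3000 bp that holds exon 3 of the 11 exons of Tet3-001 (chr6:83352001-83355000), where 5 of 15 tiles kept a value. On the autosomes 26 of 16734 runs of such tiles were 10 or more long. The Tet3 run, of 10 tiles, was among the shortest of these. The longest, of 45 tiles, lay on chromosome 13 and overlapped no protein-coding gene, so such runs also occurred away from the deleted genes. The tiles that remained were highly methylated, at 72.7% to 100% in the Tet2 stretch and 80.0% to 100% in the Tet3 stretch.

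**Figure D1:**
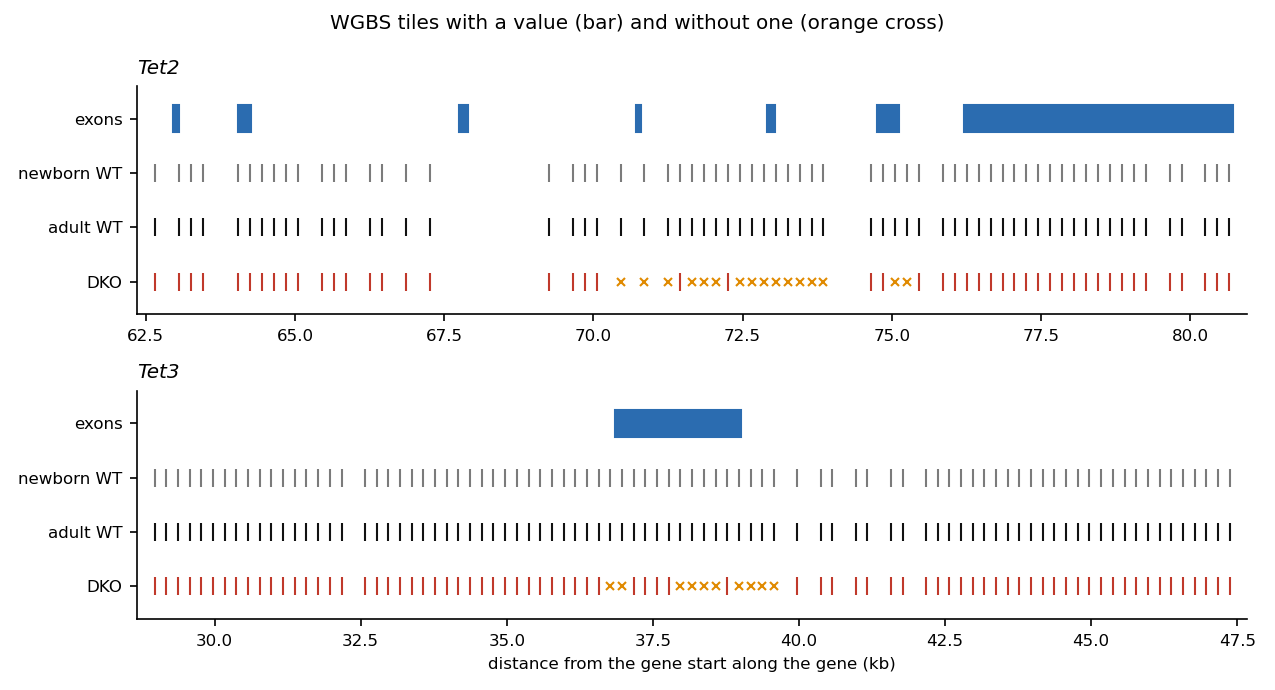
WGBS tiles around the stretches without DKO values in Tet2 and Tet3, by distance from the gene start in kb, with exons as blue boxes. A bar is a tile with a value and an orange cross a tile without one. Tiles with a value in both WT libraries are drawn, and the DKO row has 16 crosses in Tet2 and 10 in Tet3.

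RRBS measured 19 tiles of 100 bp in the Tet3 stretch and none in the Tet2 stretch. A value was present for 14, 14 and 15 of them in the controls injected at 1 day and for 3 and 3 in the DKO. After injection at 3 weeks the controls had 15, 14 and 15, and the DKO 10 and 6. Every DKO library thus had fewer of these tiles than every control of its injection time, with fewer in the mice injected at 1 day. Among libraries that were not DKO, WT of 3 weeks had 16 and 14, and neutrophils 16. Hepatocytes labelled in vitro had 10 and 15, insulin receptor knockouts 12 and 10, and fat 13. The DKO library with 10 was therefore not below all of these. Exons 8 and 9 of Tet2, shown because they lie in the stretch without DKO values, encode part of the protein before its last exon and read as follows on the minus strand, which is the coding strand.
Tet2 exon 8 (chr3:133136560-133136649): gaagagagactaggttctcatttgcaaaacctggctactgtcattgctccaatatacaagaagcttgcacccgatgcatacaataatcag
Tet2 exon 9 (chr3:133134304-133134441): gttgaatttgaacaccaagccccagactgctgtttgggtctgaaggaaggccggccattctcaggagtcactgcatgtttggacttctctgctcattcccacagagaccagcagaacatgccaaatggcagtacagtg

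Tet2 (ENSMUSG00000040943, chr3:133126643-133207354), which lacks the DNA-binding CXXC domain of its relatives, was measured at 2.13, 1.63 and 0.89 FPKM in controls injected at 1 day and at 4.08, 2.82 and 3.16 FPKM in DKO. All 3 DKO values were above all 3 control values, although the gene itself had been deleted in part. Tet2 RNA was higher by 0.79 on the log2(FPKM + 1) scale (SE 0.20, limma adjusted p = 0.0173). After injection at 3 weeks the order was the opposite, with 2.56, 2.08 and 2.99 FPKM in controls and 1.84 and 0.824 FPKM in DKO, a difference of -0.63 (SE 0.23, limma adjusted p = 0.108) that did not pass. The difference between these 2 deletion effects was 1.42 (SE 0.31, limma adjusted p = 0.0337). It lost the call without DKO injected at 1 day replicate 1 (1.31, limma adjusted p = 0.0861) or replicate 3 (1.45, 0.058), without control injected at 1 day replicate 3 (1.22, 0.0761), without DKO injected at 3 weeks replicate 2 (1.10, 0.196) and without control injected at 3 weeks replicate 1 (1.41, 0.0679). The effect at 1 day itself lost it without DKO replicate 1 (0.67, limma adjusted p = 0.0818) or control replicate 3 (0.59, 0.0961).

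Tet3 (ENSMUSG00000034832, chr6:83312367-83391672), the TET enzyme of the early embryo, lay in a narrow range. Controls injected at 1 day had 2.11, 2.55 and 1.68 FPKM and DKO 2.78, 1.74 and 2.65 FPKM, with overlapping groups and a log2 difference of 0.12 (95% interval -0.20 to 0.44). After injection at 3 weeks controls had 2.55, 2.89 and 2.44 FPKM and DKO 1.67 and 1.56 FPKM. These groups did not overlap, but the difference of -0.47 did not pass (limma adjusted p = 0.0985). Tet1, the TET enzyme best known from pluripotent cells, was close to absent, with 0.0512 FPKM at 1 week, 0.0113 to 0.0152 FPKM at 3 weeks and at most 0.00925 FPKM in every 15 week library. It was listed at 0 in both DKO libraries injected at 3 weeks, where an exact 0 can also be a failed estimate.

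Dnmt3a (ENSMUSG00000020661, chr12:3806007-3914443) was the only member called lower in DKO at both injection times. Controls injected at 1 day had 1.77, 1.98 and 1.60 FPKM and DKO 1.21, 0.991 and 1.25 FPKM. Controls injected at 3 weeks had 2.32, 2.55 and 3.01 FPKM and DKO 1.14 and 0.978 FPKM. At neither time did the groups overlap. The log2 differences were -0.37 (SE 0.11, limma adjusted p = 0.0366) and -0.81 (SE 0.13, limma adjusted p = 0.00406), and the difference between them, 0.44, did not pass (limma adjusted p = 0.112). The call at 1 day was weak: it was lost when any 1 of the 6 libraries was left out, with limma adjusted p from 0.0643 to 0.0989 and differences from -0.42 to -0.32. The call at 3 weeks was lost without DKO replicate 2 (-0.75, limma adjusted p = 0.0814), which leaves 1 DKO library assumed to vary like the other groups, and was kept without the control that expressed Xist (-0.83, limma adjusted p = 0.012). Gm10485 and AC159324.1 lie antisense within Dnmt3a, as 7530422B04Rik does within Dnmt3b and part of Glt8d2 within Tdg, and since no strand is stated for the counting their reads cannot be told apart.

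Dnmt1 (ENSMUSG00000004099, chr9:20711650-20757317), the maintenance enzyme, stood at 2.38, 2.00 and 2.38 FPKM in controls injected at 3 weeks and at 1.23 and 1.27 FPKM in DKO, lower by a log2 difference of -0.53 (SE 0.13, limma adjusted p = 0.0328). Leaving out any library but control replicate 2 moved this p to between 0.0741 and 0.225. After injection at 1 day the values overlapped, with 2.24, 2.03 and 1.57 FPKM in controls and 1.86, 1.52 and 1.57 FPKM in DKO (difference -0.15, 95% interval -0.39 to 0.09). Dnmt3b (ENSMUSG00000027478, chr2:153475186-153513466) had 0.977, 0.453 and 0.263 FPKM in controls injected at 1 day and 2.72, 1.147 and 0.805 FPKM in DKO, a difference of 0.66 (limma adjusted p = 0.0768). For injection at 3 weeks it had 1.55, 0.783 and 1.17 FPKM in controls and 0.435 and 0.301 FPKM in DKO, a difference of -0.65 (limma adjusted p = 0.166). Neither passed, nor did the difference between the injection times, 1.31 (limma adjusted p = 0.0545). Tet2 and Dnmt3b had the same replicate as the highest of the 3 DKO and of the 3 control libraries injected at 1 day, replicate 1 of each.

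Of the 6 members tested, 2 were called at each injection time, 1 in each direction at 1 day and both lower at 3 weeks. Among all 11166 genes tested, 20.0% were called after injection at 1 day (483 higher, 1745 lower), 5.25% after injection at 3 weeks (101 higher, 485 lower) and 5.36% for the difference between the times. The median log2 difference over all genes was -0.11 at 1 day and -0.07 at 3 weeks, and scaling by the upper quartile moved the first to 0.03. That scaling also moved the split of all called genes, to 1562 higher and 1266 lower at 1 day, 556 and 776 at 3 weeks, and 1264 and 949 for the difference between the times (260 and 339 as deposited). The surplus of lower genes thus reversed at 1 day and for the difference between the times, and remained at 3 weeks. Under that scaling the Dnmt3a difference at 1 day was -0.25 (limma adjusted p = 0.136) and that of Dnmt3b 0.76 (limma adjusted p = 0.0381). The red cell precursor list also differed with the deletion at 1 day, with 22.8 to 24.66 FPKM summed in DKO against 63.85 to 80.26 FPKM in controls. Of its 8 genes tested 1 was called, Alas2, with means of 12.6 and 58.26 FPKM, which makes up most of that gap. The globin gene Hbb-b1 overlapped, at 0.522 to 0.681 FPKM in DKO and 0.0271 to 1.02 FPKM in controls. Blood cell genes summed to 1.408 to 2.575 FPKM in DKO and 3.276 to 5.625 FPKM in controls at 1 day, and at 3 weeks the endothelial sum was 10.92 to 22.79 FPKM in DKO against 3.808 to 10.23 FPKM in controls. Their part in the members' differences was not tested. In these bulk samples fewer cells of a type and less RNA per cell cannot be told apart. Controls injected at 1 day were also compared with uninjected 15 week WT. There limma called 0 members and 0% of all genes, with 855 genes at an unadjusted p under 0.05. Among these were Tet3 (-0.41, limma unadjusted p = 0.0142, adjusted p = 0.458) and Dnmt3a (-0.32, 0.0143 and 0.458). Both were lower in every injected control than in every uninjected library, and Tet2, Dnmt1, Dnmt3b and Uhrf1 overlapped. The Dnmt3a difference for deletion at 1 day was -0.37.

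**Figure D2:**
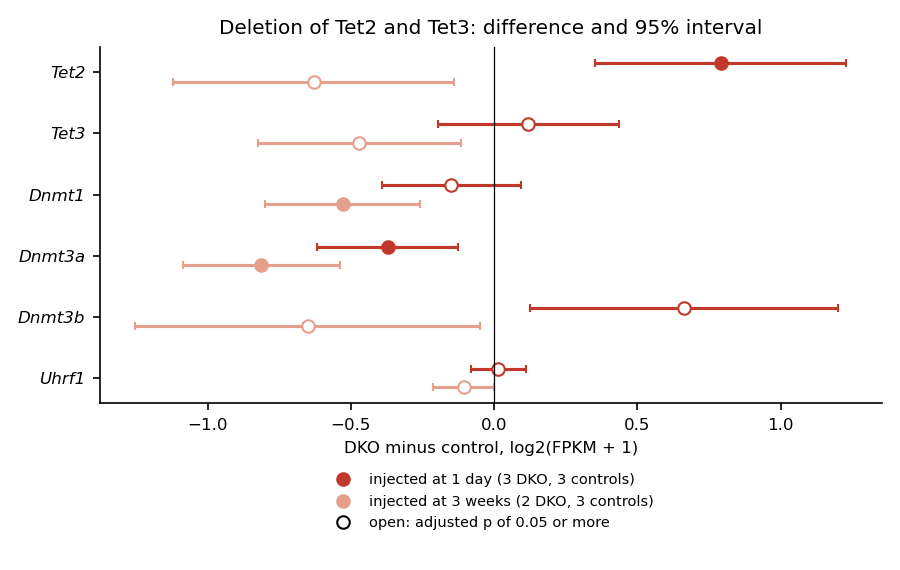
Difference between DKO and control hepatocytes on the log2(FPKM + 1) scale with its 95% interval, for the 6 members tested. Filled points passed an adjusted p of 0.05. Dnmt3a lies below 0 at both injection times, and Tet2 lies at 0.79 for injection at 1 day and at -0.63 for injection at 3 weeks.

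The members were then followed with age in uninjected WT. Uhrf1 (ENSMUSG00000001228, chr17:56442744-56462909) was at 6.24 FPKM at 1 week, at 0.92, 0.837 and 0.875 FPKM at 3 weeks and at 0.0851, 0.112 and 0.114 FPKM at 15 weeks. Each age was clear of the next, and the 1 week value was about 60 times the 15 week mean. From 3 to 15 weeks Uhrf1 fell by 0.77 on the log2(FPKM + 1) scale (SE 0.04, limma adjusted p = 3.41e-08), a scale that understates the change of a gene this low. In injected hepatocytes it was measured at 0.0345 to 0.148 FPKM in controls and at 0.0113 to 0.0989 FPKM in DKO.

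Dnmt3b followed with 4.46 FPKM at 1 week, 1.96, 0.895 and 1.79 FPKM at 3 weeks and 0.489, 0.341 and 0.223 FPKM at 15 weeks. It fell by 0.89 from 3 to 15 weeks (SE 0.25, limma adjusted p = 0.0144). Dnmt1 was at 7.07 FPKM at 1 week, at 2.55, 1.67 and 2.38 FPKM at 3 weeks and at 2.12, 1.99 and 2.03 FPKM at 15 weeks, so that its later levels overlapped (difference -0.06, 95% interval -0.30 to 0.18). Tet2 fell by 0.73 (SE 0.20, limma adjusted p = 0.0141), from 4.02, 2.53 and 3.71 FPKM at 3 weeks to 1.58, 1.66 and 1.66 FPKM at 15 weeks, and the 1 week library had 2.92 FPKM. Without WT 3 weeks replicate 1 the limma adjusted p was 0.0505 for Tet2 and 0.0516 for Dnmt3b. Dnmt3a, at 4.25 FPKM at 1 week, had overlapping levels at 3 weeks (2.38, 1.91 and 2.42 FPKM) and 15 weeks (2.44, 2.01 and 3.04 FPKM).

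Tet3 had overlapping levels at all ages, with 2.77 FPKM at 1 week, 2.82, 2.14 and 3.10 FPKM at 3 weeks and 3.27, 2.59 and 3.55 FPKM at 15 weeks. In adult WT hepatocytes Tet3, Dnmt3a and Dnmt1 were the most abundant members per length, with group means of 3.14, 2.5 and 2.05 FPKM. The glycosylase genes were low throughout. Tdg (ENSMUSG00000034674) ranged from 0.178 to 1.04 FPKM with its ages overlapping, and Mbd4 (ENSMUSG00000030322) was at 0.397 FPKM at 1 week and between 0.0582 and 0.227 FPKM in all other libraries.

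From 3 to 15 weeks 3 of 6 members were lower and 0 higher, beside 33.3% of all genes called (2678 higher, 1041 lower). The 15 week WT libraries also served the comparison with 1 week and that with the injected controls, so these share them. For the single 1 week library no test was run. By the rule that every 15 week library differ from it by at least 1 log2 unit in the same direction, Dnmt1, Dnmt3b and Uhrf1 were lower at 15 weeks and no member was higher, beside 14.4% of all genes (641 higher, 962 lower). The 6 endothelial markers measured were all lower at 15 than at 3 weeks, with sums of 2.439 to 5.031 FPKM against 12.42 to 21.45 FPKM. Blood cell genes summed to 0.9633 to 1.359 FPKM against 3.073 to 8.044 FPKM, with 3 of 5 tested called lower, and 2 of 5 stellate and fibroblast genes were called lower, Col3a1 (-2.51, limma adjusted p = 0.000124) and Col1a2 (-1.39, 0.000598). The part of these cells in the age differences was not tested. Scaling by the upper quartile moved the median of all genes in this comparison from 0.16 to -0.06, a shift of -0.21, and the split of all called genes to 1535 higher and 2553 lower. Under it Dnmt1 was lower at 15 weeks by a log2 difference of -0.26 (limma adjusted p = 0.0482), and the differences of Tet3 and Dnmt3a, 0.17 and 0.11 as deposited, were -0.05 and -0.10.

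**Figure D3:**
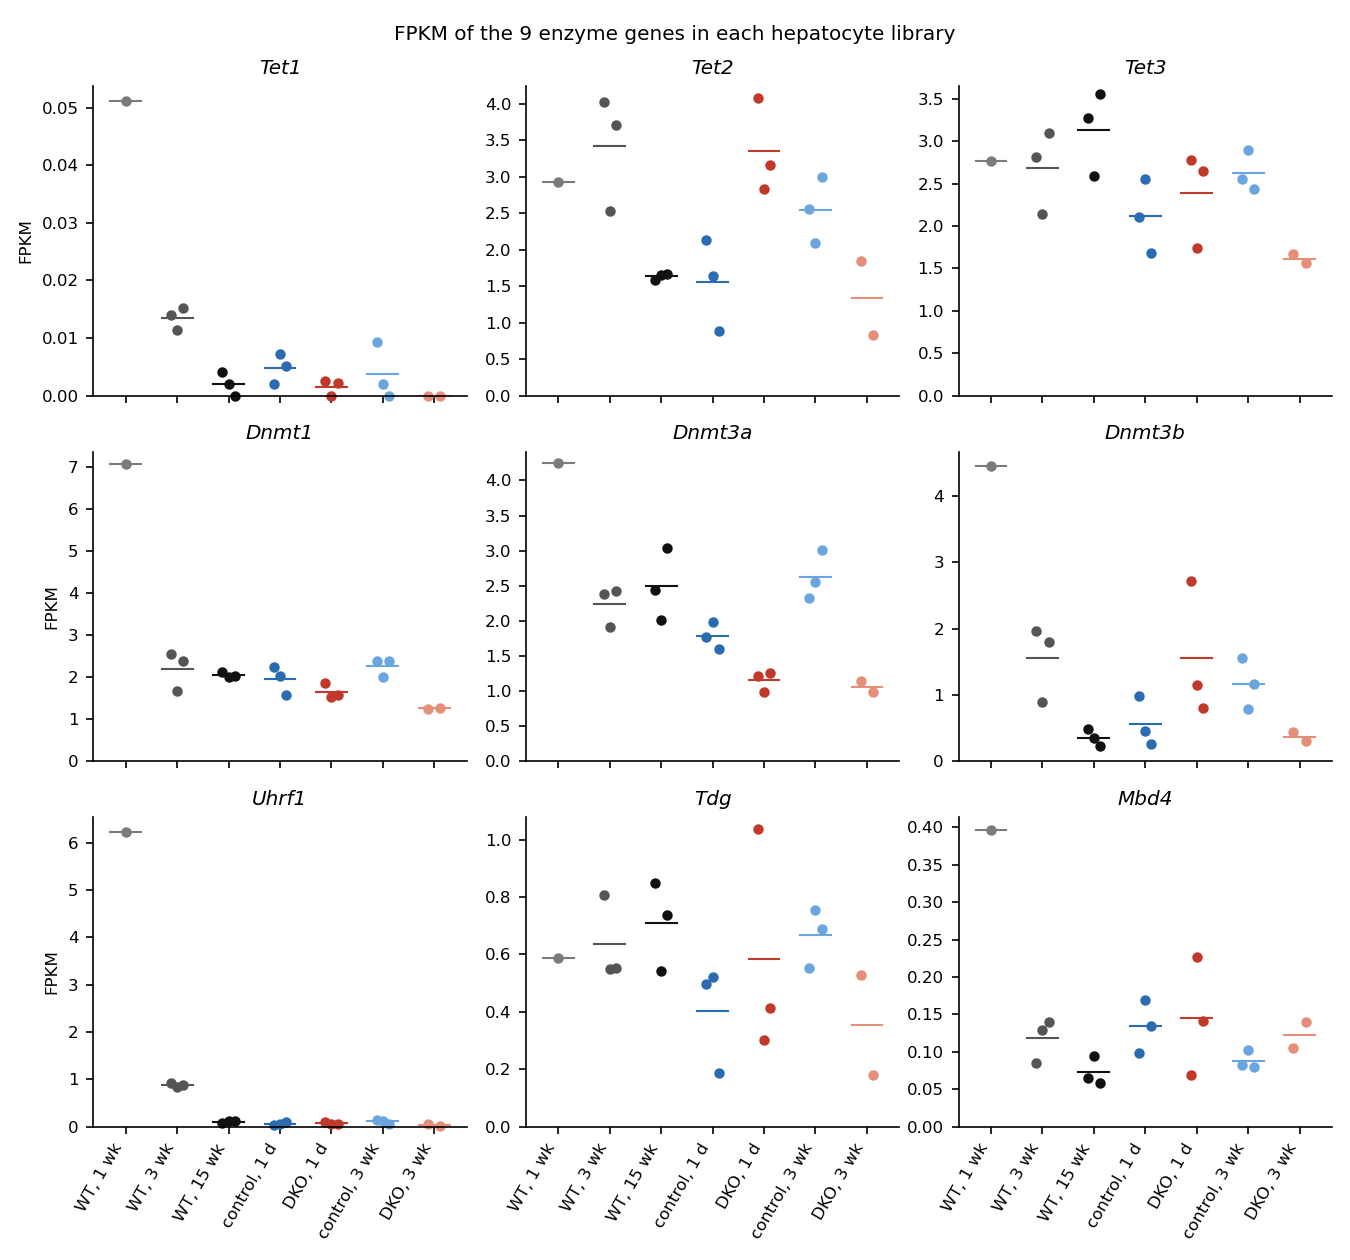
FPKM of each member in each library, on an axis from 0 in every panel, with 1 point per library and a line at the group mean. WT is uninjected, and the times on control and DKO are the age at injection. Uhrf1 drops from 6.24 FPKM at 1 week to about 0.1 FPKM in the adult, and Dnmt3a is lowest in both DKO groups.

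Genes that work with the members were counted by list. Of 24 genes of DNA replication, 23 were tested, and all 23 were lower at 15 weeks than at 1 week and 18 lower than at 3 weeks. The kinase Aurkb fell by 0.80 and Mki67, a marker of cycling cells, by 1.04 from 3 to 15 weeks (limma adjusted p = 4.77e-07 and 5.83e-08). The median over the list was -0.65, against 0.16 over all genes. In DKO injected at 1 day 5 were lower and 0 higher, among them E2f1 (-0.61, limma adjusted p = 0.00926), and in DKO injected at 3 weeks Mcm2 alone was lower (-0.54, limma adjusted p = 0.0184). Of all genes 20.0% were called after injection at 1 day and 5.25% after injection at 3 weeks, so 5 and 1 of 23 are near that background. The deletion counts of the other lists stand beside the same shares. The age counts of all lists stand beside 33.3% of all genes called from 3 to 15 weeks and 14.4% from 1 to 15 weeks. The Mcm2 call was lost without DKO replicate 1 (-0.48, limma adjusted p = 0.0816), DKO replicate 2 (-0.61, 0.113) or control replicate 1 (-0.53, 0.06). Of 11 partners of the methyltransferases, 8 were tested. Trim28 was lower at 15 than at 3 weeks (-0.52, limma adjusted p = 0.00767), and Hells, Trim28 and Pcna were at least 1 log2 unit below the 1 week library. Pcna, the replication clamp to which DNMT1 binds, was lower in DKO injected at 1 day (-0.59, limma adjusted p = 0.0243), a call lost without DKO replicate 1 (-0.48, 0.113), DKO replicate 3 (-0.62, 0.0521) or control replicate 3 (-0.44, 0.129).

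Of 18 genes of base excision repair tested, 1 was lower and 0 were higher in DKO injected at 1 day, Polb, the repair polymerase (-0.86, limma adjusted p = 0.00306), and 0 were called after injection at 3 weeks. From 3 to 15 weeks 3 were lower (Neil3, Lig1 and Ung) and 1 was higher (Apex1). Of 10 methyl-CpG readers, 5 were higher and 0 lower at 15 than at 3 weeks, Zbtb33 by 0.76 (limma adjusted p = 0.000271). Of all genes 2678 were higher and 1041 lower in this comparison, a split that upper quartile scaling turned to 1535 and 2553. The list counts were not repeated under that scaling. In DKO, Mbd3 was lower after injection at 1 day (-0.42, limma adjusted p = 0.0438), and Zbtb38 and Zbtb4 after injection at 3 weeks (-0.71 and -0.54, limma adjusted p = 0.0294 and 0.0325). Among leave-one-out fits of its own comparison, Mbd3 lost its call without any 1 library but DKO replicate 2 (limma adjusted p from 0.0556 to 0.19), Zbtb38 without any but control replicate 3 (0.0565 to 0.297) and Zbtb4 without any but control replicate 2 (0.0661 to 0.285). Of 15 TET partners and cofactor enzymes tested, Idh1 and Fh1 were lower in DKO injected at 1 day (-0.59 and -0.73, limma adjusted p = 0.0198 and 0.034), and 0 were called after injection at 3 weeks. Idh1 lost its call without DKO replicate 1 or control replicate 1 or 3 (limma adjusted p from 0.0536 to 0.105), and Fh1 without these or DKO replicate 3 (0.0592 to 0.164). IDH1 makes 2-oxoglutarate, which TET enzymes need, and fumarate, the substrate of FH1, can inhibit them.

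Of 14 genes of methyl donor metabolism, 4 were lower and 1 higher in DKO injected at 1 day. Nnmt, which spends S-adenosylmethionine on nicotinamide, fell by 2.58 log2 units (limma adjusted p = 0.000772), and Gamt, Shmt2 and Gnmt differed by -0.72, -0.56 and -0.81 (limma adjusted p = 0.00834, 0.0185 and 0.0255). Shmt2 lost its call without DKO replicate 1 or 3 or control replicate 3 (limma adjusted p from 0.0572 to 0.088), and Gnmt without these or control replicate 1 (0.0502 to 0.132). After injection at 3 weeks 1 was lower and 0 were higher, Mtr, the methionine synthase (-0.50, limma adjusted p = 0.0252), whose call was lost without any 1 library of that comparison but control replicate 2 (0.0593 to 0.197). The medians of this list were -0.39 and -0.20, against -0.11 and -0.07 over all genes.

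Over the 18 libraries the profile of Uhrf1 was nearest to those of 2810417H13Rik (Pearson r = 0.996), Clspn (0.994) and Pnliprp1 (0.994). That of Dnmt1 was nearest to Lacc1 (0.953), Specc1 (0.945) and Mcm2 (0.945), and that of Dnmt3a to Tcf3 (0.938), Ttc3 (0.924) and Znrf3 (0.923). Dnmt3b was nearest to 9430008C03Rik (0.925), Thpo (0.899) and Mybbp1a (0.897), Tet2 to Pcsk5 (0.880), Cdcp1 (0.870) and Pkhd1 (0.864), and Tet3 to Vps13a (0.905), Chd6 (0.860) and Kmt2a (0.860). Among the members themselves Dnmt1 correlated with Uhrf1 at 0.86 and with Dnmt3a at 0.80, and Tet2 with Dnmt3b at 0.79. These values describe libraries of a few groups, of which the 1 week library stands far from the others.

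The methylation of the genes themselves was examined next, in 2100 WGBS tiles with a value in all 3 libraries. Each library is single, and the coverage behind a tile is not in the values, so no interval or test was possible. Between newborn and adult WT, 41 tiles (1.95%) lost at least 35 percentage points and 9 (0.429%) gained as much, beside 1.63% and 0.261% of 8049849 tiles genome-wide. The DKO was at least 35 points above adult WT in 85 tiles (4.05%) and as far below in 1, beside 1.98% and 0.240%. Of the 41 tiles that lost methylation, 33 were among those where the DKO was higher, and over all such tiles of the genome this share was 70.6%.

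Dnmt3a held 19 of the 41 lost tiles and 44 of the 85 tiles that were higher in DKO. This was 9.36% of its tiles. Genes were ranked by these shares among 12892 genes of at least 50 tiles, counting tiles up to 1000 bp beyond either end. For tiles higher in DKO, Dnmt3a (9.24%) stood at the 90.1 percentile, the median gene had 1.71%, and 1278 genes had a higher share. For lost tiles it (3.99%) stood at the 81.5 percentile, the median gene had 1.19%, and 2381 genes had a higher share. Tet2 had 9 lost tiles (3.42% of its tiles) and 11 higher in DKO (4.18%), and Dnmt3b 5 (3.03%) and 10 (6.06%). Tet3 had 5 (1.45%) and 12 (3.47%), Tet1 2 (0.505%) and 3 (0.758%), and Tdg 1 (1.02%) and 0. Dnmt1, Uhrf1 and Mbd4 had no lost tile, with 3 (1.4%), 1 (1.09%) and 1 (1.79%) higher in DKO. The tile with the largest loss in each of Dnmt3a, Tet2 and Tet3 lay in an intron and held a single CG, shown in capitals on the plus strand of mm9.
Dnmt3a intron 4 (chr12:3868801-3869000): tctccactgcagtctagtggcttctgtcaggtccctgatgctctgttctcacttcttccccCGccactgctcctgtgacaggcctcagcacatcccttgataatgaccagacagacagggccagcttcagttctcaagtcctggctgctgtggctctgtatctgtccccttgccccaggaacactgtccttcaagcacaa
Tet2 intron 4 (chr3:133146001-133146200): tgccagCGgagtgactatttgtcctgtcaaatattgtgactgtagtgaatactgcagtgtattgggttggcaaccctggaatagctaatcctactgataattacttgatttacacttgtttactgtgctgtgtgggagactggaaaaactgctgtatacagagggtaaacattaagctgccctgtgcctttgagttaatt
Tet3 intron 2 (chr6:83382201-83382400): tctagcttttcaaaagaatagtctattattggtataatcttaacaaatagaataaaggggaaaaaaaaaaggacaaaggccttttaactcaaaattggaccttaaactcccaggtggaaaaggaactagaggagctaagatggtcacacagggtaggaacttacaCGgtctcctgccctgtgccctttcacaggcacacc

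The Dnmt3a tile was at 79.4% in newborn WT, at 0% in adult WT and at 80.0% in DKO. That of Tet2 was at 96.2%, 19.4% and 90.6%, and that of Tet3 at 75.8%, 0% and 100%. In all of these the DKO lay nearer to the newborn than to the adult. The tiles were chosen for their fall to this same adult library, which favours that order, so it is no test. Dnmt3b intron 1 (chr2:153483001-153483200) had 88.2%, 20.0% and 89.8%, and Tet1 exon 6 (chr10:62295601-62295800), with 7 CG sites, 87.1%, 30.8% and 78.2%. The single lost tile of Tdg (chr10:82105401-82105600) differed, with 100%, 58.3% and 60%. Of the 41 lost tiles, 36 lay in introns, 3 in exons and 2 in promoters. A peak of H3K4me1, a mark of enhancers, overlapped 32 of them (78.0%), one of H3K27ac 18 (43.9%), one of 5hmC 9 (22.0%) and one of ATAC-Seq 5 (12.2%), beside 60.5%, 40.2%, 19.8% and 10.6% of all lost tiles.

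The main starts of all members but Tet1 had a mean methylation of at most 24.8% in all 3 libraries. The mean was taken over the tiles in a window of 1001 to 1168 bp around each. It was 1.69%, 0.417% and 1.56% in newborn, adult and DKO at Tet2-202, 4.49%, 4.09% and 3.70% at Tet3-001, 3.59%, 0.772% and 2.43% at Dnmt3a-001, at most 3.07% at Tdg and 2.11%, 1.78% and 3.46% at Mbd4. Dnmt1, Dnmt3b and Uhrf1 had means of 7.11% to 24.8%. Single tiles in these windows reached 76.9% at Dnmt1 (DKO) and 80.5% at Dnmt3b (adult). Every start of Tet1, the member near 0 FPKM, was methylated at 85.5% to 98.2%. Tdg and Mbd4, which were also low in RNA, had starts with little methylation.

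One start inside Dnmt3a differed between the libraries. Transcripts Dnmt3a-005 and Dnmt3a-201 begin at 3891728 and 3891744 on chromosome 12, in intron 6 of the longest form. Around them, at chr12:3890801-3892600, 7 of 9 tiles were at least 35 points higher in DKO than in adult WT, and the 7 had means of 14.6% in newborn, 11.8% in adult and 63.9% in DKO. This window was chosen from these WGBS values after they were seen. It had not lost methylation after birth. The 9 tiles ran from 0% to 19.3% in the adult and from 14.3% to 79.5% in DKO, with the lowest DKO value in the tile that holds both starts. The 300 bases before the first start hold 16 CG sites, in capitals, and are shown because they lead into the first start. The 2 WGBS tiles they overlap were the 2 of the 9 not called, at 42.2% and 14.3% in DKO against 7.41% and 0% in adult WT.
Dnmt3a inner start, upstream (mm9, chr12:3891428-3891727, plus strand): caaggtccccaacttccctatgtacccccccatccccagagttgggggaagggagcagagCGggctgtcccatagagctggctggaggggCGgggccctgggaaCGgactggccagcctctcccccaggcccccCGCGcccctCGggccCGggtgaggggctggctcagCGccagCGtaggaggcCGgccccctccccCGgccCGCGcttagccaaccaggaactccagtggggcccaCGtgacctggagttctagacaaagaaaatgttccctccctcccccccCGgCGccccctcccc

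**Figure D4:**
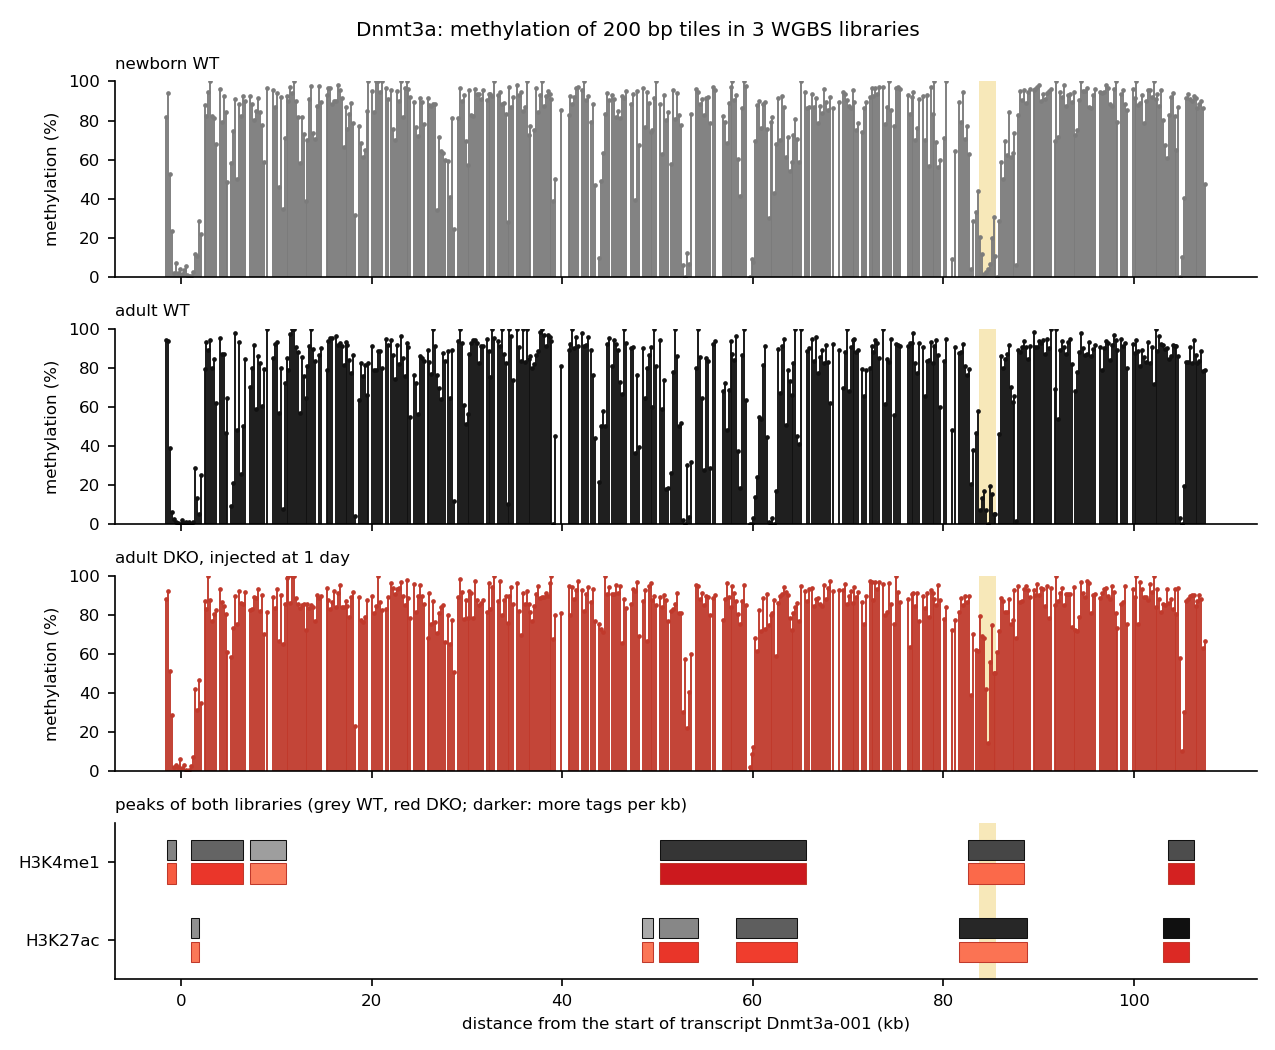
Methylation of each 200 bp tile along Dnmt3a in the 3 WGBS libraries, in percent, by distance from the start of transcript Dnmt3a-001 in kb, above the histone peaks called in both WT (grey) and DKO (red). The shaded window is the inner start, where adult tiles lie at or below 19.3% and DKO tiles reach 79.5%.

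RRBS measured this window in other libraries, in 4 to 10 tiles of 100 bp per library, again with no coverage in the values and so unknown depth. The mean was 5.10%, 5.09% and 14.2% in controls injected at 1 day and 54.4% and 42.4% in DKO. For injection at 3 weeks it was 13.8%, 8.70% and 14.2% in controls and 33.9% and 29.3% in DKO. At both times both DKO libraries were above all controls, by 40.3 and 19.4 points on average. The two-sided exact permutation test gave p = 0.1 for each, the smallest that 2 against 3 libraries allow, so neither could pass 0.05. The difference between the injection times was not tested. WT hepatocytes of 3 weeks had 11.8% and 6.28%, and the cultured hepatocytes, labelled in vitro and 1 week, 7.72% and 5.70%. Insulin receptor knockout hepatocytes had 18.7% and 32.6%, fat 2.78% and neutrophils 0.519%.

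**Figure D5:**
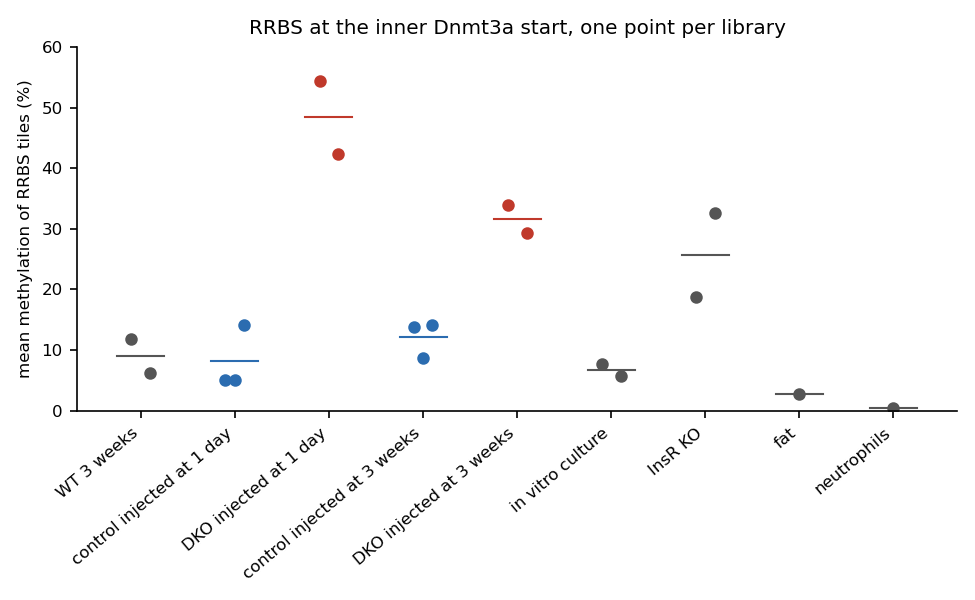
Mean methylation in percent of the RRBS tiles at the inner Dnmt3a start, 1 point per library with a line at the group mean. The DKO libraries lie between 29.3% and 54.4% and the injected controls between 5.09% and 14.2%.

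Over all RRBS tiles of Dnmt3a the DKO libraries injected at 1 day had 61.5% and 60.5% and their controls 46.4% to 48.1%, which is 13.9 points higher on average (exact permutation test, two-sided p = 0.1, the smallest possible), 8.70 points over the 61 tiles measured in every library, or 43.7 points as a difference of medians over tiles. Injection at 3 weeks gave 7.67 points (exact permutation test, two-sided p = 0.1). Uhrf1 had means of 62.7% in DKO and 50.2% in controls injected at 1 day, 12.5 points higher and without overlap (exact permutation test, two-sided p = 0.1), or 5.63 points over 25 shared tiles, and the groups injected at 3 weeks overlapped. Groups were also without overlap for Tet1 (3.73 points) and Dnmt3b (6.30) at 1 day. At 3 weeks this held for Dnmt1 (-2.75), Dnmt3b (4.23) and Mbd4 (-4.23). Of these, Dnmt1 and Dnmt3b at 3 weeks also reached p = 0.1 (exact permutation test, two-sided). Tiles at least 35 points above controls numbered 8 in Dnmt3a, 2 in Tet3 and 2 in Uhrf1 after injection at 1 day and 4 in Dnmt3a after injection at 3 weeks, beside 2.23% of 460676 and 1.13% of 417310 tiles genome-wide. Each library injected at 1 day measured 73 to 80 tiles in Dnmt3a, 41 to 59 in Tet3 and 27 to 33 in Uhrf1. Those injected at 3 weeks measured 61 to 77 in Dnmt3a. The 8 tiles of Dnmt3a were 6 at the inner start and 2 in intron 4. The intron 4 tile at chr12:3871801-3871900 had 13.3%, 32.7% and 36.8% in controls injected at 1 day and 83.2% and 79.1% in DKO, and in WT of 3 weeks 73.3% and 61.7%. In Uhrf1 a tile before the start (chr17:56442201-56442300) was at 0% in all 3 controls injected at 1 day and at 36.8% and 34.0% in DKO, while Uhrf1 RNA was near 0 in both groups.

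Chromatin marks were compared at the same places. Tags in a peak are given as HOMER scales them to a common library size, and histone libraries are single. The H3K27ac peak over the inner Dnmt3a start (chr12:3888660-3895820) held 232.1 tags over 7161 bp in WT and 32.6 tags over 2269 bp in DKO, a ratio of 0.141, or 0.444 per bp. The median ratio of the 25710 peaks called in both libraries was 1.45, or 1.23 per bp, and this peak stood at percentile 0.482 among them. The H3K4me1 peak there (chr12:3889650-3895500) was also smaller in DKO, with 167.0 tags over 5851 bp in WT and 23.2 tags over 1460 bp in DKO, a ratio of 0.139 against a median of 1.14, or 0.557 against 1.09 per bp. The 6 shared H3K27ac peaks of Dnmt3a, none of which lay over its main start, had ratios of 0.141 to 0.784, or 0.444 to 1.24 per bp. Shared peaks inside other members had ratios of 0.772 in Dnmt3b intron 1 and 1.08 and 3.30 in Tet3 intron 2, or 1.08, 1.27 and 0.878 per bp. Those at the main starts of Tet2, Tet3, Dnmt1, Dnmt3b, Tdg and Mbd4 had ratios of 1.64 to 4.87, or 1.33 to 1.98 per bp.

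ATAC-Seq peaks lay at the main starts of Tet2, Tet3, Dnmt1, Dnmt3a, Dnmt3b, Tdg and Mbd4 in all 4 libraries. At Uhrf1 the main start had a peak in 2 of 4 libraries. A peak centred 872 bases inside, which ends just before the second start at chr17:56443736, was called in all 4. Tet1 had no ATAC-Seq peak. Of 29 merged ATAC-Seq peaks in the members, 15 were called in every library. Called in both WT and in neither DKO were 2, beside 2.96% of 84705 peaks genome-wide, and both lay in Dnmt3a. One was in intron 4 (chr12:3871717-3871905, with 8.72 and 5.54 tags in WT) and overlapped the RRBS tile described above. The other was 3 kb beyond the inner start (chr12:3894686-3894828, with 6.15 and 4.34 tags), in a tile with 6.29% methylation in newborn, 1.70% in adult and 68.1% in DKO. The reverse pattern, beside 5.04% genome-wide, was seen for 1 peak, in Tet3 intron 2 (chr6:83363169-83363416, with 4.2 and 5.15 tags in DKO). The peaks at the main starts held 5.54 to 49.6 tags.

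Of 36 H3K27ac peaks 6 were called in WT alone and 15 in DKO alone, beside 24.9% and 31.9% genome-wide. Of 44 H3K4me1 peaks 12 were in WT alone and 6 in DKO alone, beside 16.5% and 24.3%. Dnmt3a held 15 of the 44, with 7 in WT alone and 2 in DKO alone. HNF6, a liver transcription factor, had 11 merged peaks in the members, 0 of them called in both WT and neither DKO, beside 0.507% of 37271, and the DKO replicate 2 library had 34665 peaks against 4387 to 9355 in the others. The 5hmC library of 20 days held 57 peaks in the members, of 287566 genome-wide. Of these, 18 lay in Dnmt3a and 16 in Tet1, which was methylated and near 0 FPKM. These 2 are the longest members, at 108437 and 94549 bp, so the counts go with gene length. Dnmt1 had 2, Dnmt3b and Uhrf1 1 each and Mbd4, the shortest at 12675 bp, 0. Whether any member differs from the genome in 5hmC was not tested.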

How the data were processed

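RNA, methylation and peaks of mouse hepatocytes or liver were taken as deposited, on mm9. The authors trimmed reads with cutadapt 1.15, mapped RNA with TopHat2 and made FPKM values with Cufflinks (strand not stated). The deposited methylation values are fractions of methylated CpG readings per tile, made by the authors with Trim Galore 0.3.3 and BSMAP 2.74 and printed here in percent, with no coverage. The deposited peaks were called per library by the authors with Bowtie2 2.2.4 and HOMER, whose scaled tag number is a signal and whose peak score was used only for a stricter peak set.

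Here, log2(FPKM + 1) was fitted with limma 3.58.1 (R 4.3.3, trend) over 18 RNA libraries and 11166 genes with a group mean of at least 1 FPKM, with Benjamini-Hochberg adjustment and a threshold of 0.05. The fit was tested on simulated data. RRBS means were compared with exact permutation tests (SciPy 1.17.1). Tiles were called at 35 points. The read depth of the RNA, WGBS and RRBS libraries is unknown from these values, and peak libraries held 13437081 to 90249422 tags. Replicate libraries may be technical. RRBS columns were tied to samples by the numbers in their names. Of the RNA and RRBS columns, 49 were not tied to a sample by name and were not used.

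The members and gene lists were chosen with earlier results of these data known. One gene of the lists is not reported here. The text names all 9 members, per list and comparison up to 4 called genes with the smallest adjusted p, the 3 genes most correlated with each tested member, and each member's tile with the largest loss. Alternatives were another pseudocount, filter, scaling, sample set, tile limit and peak set, and leaving out each replicate.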

Additional observations from a re-analysis of the deposited data

Results flagged for a closer look

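Tet2, Ahcy and Cyp2e1 had deletion effects that differed between injection at 1 day and at 3 weeks by the interaction term of the limma fit. For Tet2 the difference between the effects was 1.42 log2 units (limma adjusted p = 0.0337), with 0.79 at 1 day and -0.63 at 3 weeks, and the call was lost in 5 of the fits that left out 1 library (limma adjusted p from 0.058 to 0.196). Ahcy, which hydrolyses S-adenosylhomocysteine, differed by -0.98 (limma adjusted p = 0.043), with -0.37 at 1 day and 0.61 at 3 weeks, neither called. The call for Ahcy was lost in 9 of the fits that left out 1 library (adjusted p from 0.0518 to 0.198). Cyp2e1, a hepatocyte marker, differed by -3.33 (adjusted p = 0.00804), with -3.74 at 1 day and -0.41 at 3 weeks, and lost the call without DKO injected at 3 weeks replicate 2 (-3.29, adjusted p = 0.0543).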

How the results depend on the processing

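The number of members called by limma was sensitive to the processing, and where no cause is given the cause was not tested. For deletion at 1 day, 2 members were called, 1 without a filter on low values, 0 at a mean of at least 5 FPKM (fewer genes tested), 1 with only the groups compared, and 0 to 2 when 1 replicate was left out. For deletion at 3 weeks the 2 became 1, 1 and 0 under the same settings and 0 to 2 without 1 replicate. For the difference between injection times the 1 became 2 at a pseudocount of 0.1, 0 without a filter, 0 at 5 FPKM, 4 under upper quartile scaling, 2 under quantile normalization, 0 with only the groups compared and 0 to 3 without 1 replicate. From 3 to 15 weeks the 3 became 1 at 5 FPKM and 1 to 3 without 1 replicate. At 5 FPKM 2 members passed the filter.

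Differences near 0 reversed. From 3 to 15 weeks Tet3 was -0.0478 under upper quartile scaling, and Dnmt3a -0.0993 there, -0.0381 under quantile normalization and -0.00193 to 0.208 without 1 replicate, while Dnmt1 ran from -0.184 to 0.0201 without 1 replicate. Uhrf1 after deletion at 1 day was -0.0361 under quantile normalization and -0.00358 to 0.0393 without 1 replicate. Between injected and uninjected WT, Tet2 ran from -0.240 to 0.125 and Dnmt1 from -0.126 to 0.0396 without 1 replicate.

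At 25 points 86 tiles were lost and 142 higher in DKO, and at 50 points 22 and 40, beside 3.77% and 3.65% and 0.675% and 0.96% of all tiles. The Dnmt3a RRBS difference was 8.70 points over shared tiles and 43.7 points as a median over tiles. Among the 50% of peaks with the highest scores 1 ATAC-Seq peak was WT only, and without 1 library 2 to 5 were.

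Counts over all genes moved too. For deletion at 1 day (2228) 876, 997 and 1357 genes were called without control replicate 3, DKO replicate 1 or DKO replicate 3. For deletion at 3 weeks (586) 370 were called without a filter, 332 at 5 FPKM, 1332 under upper quartile scaling, 880 under quantile normalization, 56 with only the groups compared, and 53, 206 and 325 without DKO replicate 2, control replicate 1 or DKO replicate 1. The difference between injection times (599) gave 128, 2213, 1688 and 178 without a filter, under the 2 scalings and with only the groups compared, and 30 to 1748 without 1 replicate. From 3 to 15 weeks (3719) 2372 were called at 5 FPKM, and 3546 differed from 1 week (1603) at 0.5 log2 units. Injected against uninjected WT gave up to 28. Quantile normalization split the calls into 1307 higher and 1466 lower at 1 day, 428 and 452 at 3 weeks, and 1933 and 2085 from 3 to 15 weeks. No paired analysis was possible because the columns carry no replicate number shared between groups. Depth is unknown for methylation, and 1 library per state limits WGBS and histone marks.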
